A study of Mus musculus with 3 samples.

Results

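Genes of the machinery that lets proximal tubule cells take up filtered albumin were followed through the kidney. The 6 genes, Lrp2, Cubn, Amn, Dab2, Clcn5 and Fcgrt, were chosen by gene symbol, and all 6 were found among the 32285 genes of each library. Whole kidneys of male mice aged 28 weeks had been dissociated with enzymes, cleared of dead cells and debris, and profiled by droplet single-cell RNA sequencing in 3 groups. The db/m group carried the leptin receptor mutation db on a single copy of the gene, which leaves mice lean, and ate a control diet free of fructose. The db/db group carried the mutation on both copies, which makes mice obese and diabetic, and ate the same control diet. The third group was db/db and ate a diet with 60% fructose. Diets started at 8 weeks of age and lasted 20 weeks. There was 1 library per group, and how many mice a library pools is not given in the labels. No fructose-fed db/m group was analysed here, so an effect of fructose could be read on the db/db background only.

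Megalin, the product of Lrp2, and cubilin, the product of Cubn, are very large receptors of the apical brush border that bind albumin, vitamin carriers and many other filtered proteins. Cubilin has no membrane-spanning part of its own and depends on amnionless, the product of Amn, to reach the cell surface. Dab2 encodes the adaptor that links the tail of megalin to the clathrin coat. Clcn5 encodes the chloride-proton exchanger ClC-5, which serves the acidification of endosomes and is mutated in Dent disease. Fcgrt encodes the heavy chain of the neonatal Fc receptor, which binds albumin and immunoglobulin G in acid endosomes and spares them from breakdown. Albumin uptake is a function of the proximal tubule, which has an early part (segments S1 and S2) and a late part (S3).

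The genes lie apart from one another. In the GENCODE M21 annotation of mm10, Lrp2 (ENSMUSG00000027070) spans chr2:69424340-69586065 on the minus strand and Cubn (ENSMUSG00000026726) spans chr2:13276338-13491813 on the minus strand. Amn (ENSMUSG00000021278) spans chr12:111271095-111276426 and Dab2 (ENSMUSG00000022150) spans chr15:6299788-6440712, both on the plus strand. Clcn5 (ENSMUSG00000004317) spans chrX:7153810-7319358 and Fcgrt (ENSMUSG00000003420) spans chr7:45092990-45103851, both on the minus strand. Unnamed gene models on the opposite strand overlap Cubn, Dab2, Clcn5 and Fcgrt, and how the authors' counting used strand is not given in the sources used here. On its own strand Clcn5 also overlaps the microRNA genes Mir500, Mir501, Mir362, Mir188 and Mir532.

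Promoter sequence is shown for the 3 genes of the receptor complex, Lrp2, Cubn and Amn, whose level outside proximal cells kept close to that of other proximal transcripts, and for the Dab2 start site that held a match to a motif of a proximal transcription factor. Each stretch runs from 100 bases before to 10 bases from the annotated start, 5′ to 3′ on the gene's strand, from RefSeq windows on GRCm38.p6. Capitals mark matches to the HNF4 and PPAR motifs named below.
Lrp2, chr2:69586020-69586129, minus strand: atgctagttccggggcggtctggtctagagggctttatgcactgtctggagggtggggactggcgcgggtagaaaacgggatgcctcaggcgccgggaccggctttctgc
Cubn, chr2:13491867-13491976, minus strand: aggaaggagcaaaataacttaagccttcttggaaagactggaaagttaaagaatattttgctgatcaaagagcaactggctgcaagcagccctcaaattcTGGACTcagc
Amn, chr12:111270996-111271105, plus strand: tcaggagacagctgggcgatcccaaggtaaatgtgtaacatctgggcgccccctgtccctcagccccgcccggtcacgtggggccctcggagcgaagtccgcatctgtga
Dab2, second start site, chr15:6386648-6386757, plus strand: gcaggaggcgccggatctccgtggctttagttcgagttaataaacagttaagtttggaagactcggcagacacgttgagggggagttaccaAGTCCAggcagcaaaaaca

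Across all 8 annotated start sites of the 6 genes, windows of 250 bases before to 50 bases from the start were searched on both strands. The HNF4 core motif AGTCCA occurred at the second Dab2 start, from position -9 to -4, and in Cubn on the opposite strand (printed as TGGACT) in the first 6 transcribed bases. That motif is in 14.1% of 32851 RefSeq promoter windows. The PPAR direct repeat, 2 copies of AGGTCA with 1 base between them, was in none of the 8 windows and in 0.0396% of all windows. These are letter matches only. The HNF1 half-site GTTAAT had been planned but was not searched for, so its share of all windows is not known. The Dab2 stretch shown holds it in lower case. The stretches of Lrp2 and Amn were rich in G and C (63.6% and 64.5%), and that of Cubn was not (41.8%).

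After filtering, 9940 cells remained of db/m, 16227 of db/db control and 16049 of db/db fructose. Their medians were 1679, 1628 and 1531 UMIs (unique molecular identifiers, each a counted transcript molecule). Clusters were named from marker lists, so that each name means cells like that type. Proximal tubule-like cells numbered 5690, 5799 and 7632, and subclusters made within each library placed 1658, 2890 and 3741 of them as early and 1893, 2325 and 2983 as late. Mitochondrial UMIs differed between the libraries, with medians of 14.5%, 20.4% and 9.01% in proximal cells. The proximal cells of the libraries also fell in different clusters: cluster 3 held 47.9% of db/m proximal cells, cluster 2 held 45.5% of those of db/db control and 16.2% of those of db/db fructose, cluster 5 held 33.0% of the fructose cells, and cluster 18 held 46.7% and 47.8% of the db/db control and fructose cells and 5.99% of the db/m cells. Clustering had left out the 6 genes. Pairs of libraries shared 379 to 780 barcodes, of which 206 to 363 were kept cells in both.

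The segment labels were met by markers that had served to place the cells. Slc5a2, the early glucose transporter gene, was at 1633, 1664 and 2307 CPM (counts per 1000000 UMIs) in early cells and at 311, 374 and 384 CPM in late cells. Values for 3 libraries are always given for db/m first, then for db/db control, then for db/db fructose. Atp11a, a late marker, was at 388, 90.6 and 131 CPM in early and at 2314, 353 and 883 CPM in late cells. Slc7a13, a late marker that male mice express strongly, was at 311, 13.3 and 101 CPM in late cells. Among other late markers, Acsm3 was also low in late db/db cells (166, 12.1 and 6.98 CPM), whereas Slc6a18 was not (692, 721 and 1314 CPM). Acy3 (736, 124 and 279 CPM) and Cyp2e1 (541.6, 174.7 and 338.5 CPM) were lower in late cells of both db/db libraries too. Slc3a1 (233.5, 248.7 and 320.6 CPM) and Slc5a1 (21.2, 60.8 and 71.2 CPM) were not. The late subclusters of db/db control had early scores of -0.81 and -0.47 and late scores of 0.37 and 0.06. Their placing thus rested more on low early markers than on high late markers, as in db/m and db/db fructose. Scores were set against the proximal cells of the same library, so they do not show that late cells were alike between libraries. Ratios between libraries in late cells carry this limit.

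The receptor genes are given first. Setting the db/db control library against db/m asks how the diabetic genotype differs without fructose. Lrp2 stood at 2615, 1968 and 2217 CPM in early cells, with 95% Poisson intervals of 2554 to 2677, 1930 to 2007 and 2178 to 2256. In late cells it stood at 2934, 2243 and 2455 CPM, with intervals of 2880 to 2989, 2198 to 2289 and 2411 to 2499. The db/m library was highest and the db/db control library lowest in both segments, and no 2 intervals overlapped. All intervals cover counting error only. With 1 library per group, differences were not tested and have no check by replicates. As a log2 ratio, db/db control over db/m was -0.41 [-0.45 to -0.37] in early and -0.39 [-0.43 to -0.35] in late cells, a level 24.7% and 23.5% lower. The subclusters kept this order in late cells: both late db/m subclusters lay at 2904 and 2974 CPM and both late db/db control subclusters at 2166 and 2262 CPM.

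**Figure D1:**
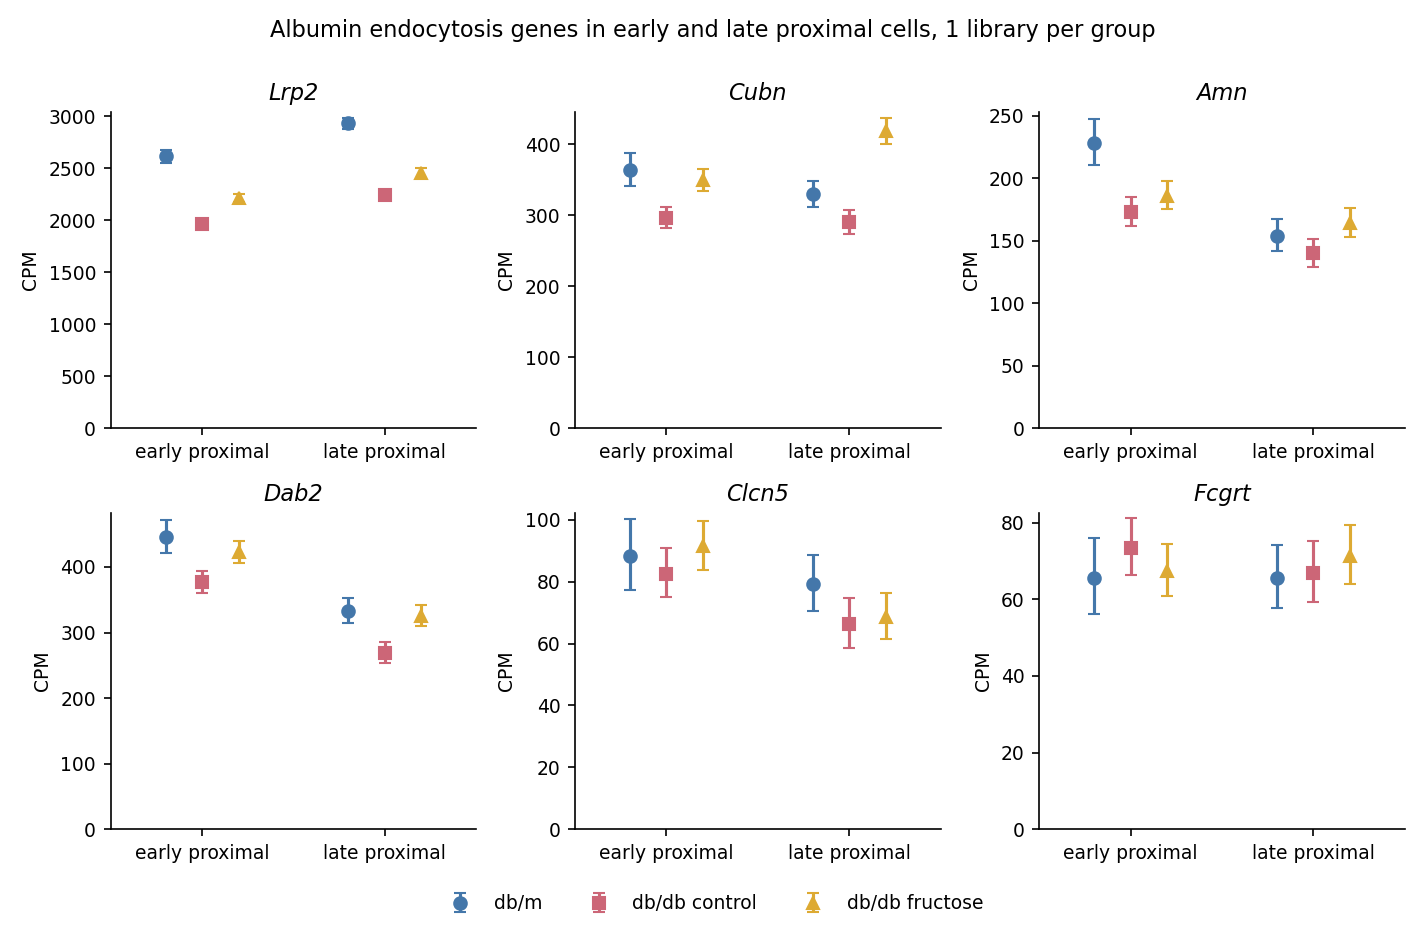
Level of each gene in CPM (linear axis from 0) in early and late proximal tubule-like cells, 1 point per library with its 95% Poisson interval. Lrp2 is highest in db/m and lowest in db/db control in both segments, and late Cubn is highest in db/db fructose at 418 CPM.

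Amn, whose product carries cubilin to the surface, was at 228, 173 and 186 CPM in early cells and at 154, 140 and 164 CPM in late cells. In early cells db/db control over db/m gave a log2 ratio of -0.40 [-0.55 to -0.25], close to that of Lrp2, whereas in late cells the interval included 0 (-0.14 [-0.31 to 0.03]). Cubn was at 364, 296 and 350 CPM in early and at 330, 290 and 418 CPM in late cells. Its ratio of db/db control to db/m was -0.30 [-0.41 to -0.18] and -0.19 [-0.30 to -0.07]. All 3 genes of the receptor complex lay lower in db/db control than in db/m in both segments, each by less than 1.5-fold, although late Amn turned positive under 2 of 13 settings of the processing (0.09 with free RNA subtracted, 0.01 with the mitochondrial genome left out of the denominator).

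Dab2, the adaptor, was at 445, 377 and 423 CPM in early and at 333, 269 and 326 CPM in late cells, and db/db control over db/m was -0.24 [-0.35 to -0.14] and -0.31 [-0.42 to -0.19]. Clcn5 was at 88.2, 82.6 and 91.5 CPM in early cells and at 79.3, 66.3 and 68.7 CPM in late cells. Its ratio was -0.09 [-0.33 to 0.14] in early and -0.26 [-0.50 to -0.02] in late cells, so an early difference was not detectable at this depth. Fcgrt was at 65.6, 73.5 and 67.4 CPM in early and at 65.6, 66.8 and 71.4 CPM in late cells, and its intervals overlapped between all 3 libraries in both segments. Its ratios of db/db control to db/m, 0.16 [-0.10 to 0.43] and 0.03 [-0.22 to 0.28], had no settled sign over the settings.

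None of the 6 reached 1.5-fold between db/db control and db/m in either segment. Among the 8667 genes measured in early cells (10 CPM or more in either library), 5.6% were at least 1.5-fold higher and 8.55% at least 1.5-fold lower. In late cells the shares were 7.21% and 12.4% of 8741 genes. The median log2 ratio of the measured genes was -0.09 in early and -0.10 in late cells, and that of the 6 was -0.27 and -0.22. Lrp2 lay 0.32 and 0.28 below the median of all genes, and 16.4% of measured genes in early and 22.9% in late cells had a lower ratio.

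The mitochondrial share of UMIs differed along with these levels. Restricted to early cells with 10% to 20% mitochondrial UMIs (818, 1304 and 1434 cells), Lrp2 was at 2663, 2082 and 2160 CPM, and in late cells of that band (790, 1143 and 900) at 2901, 2387 and 2318 CPM. The db/m library remained highest, and the order of the 2 db/db libraries turned in late cells. Over the 13 settings, the ratio of Lrp2 in db/db control over db/m lay between -0.44 and -0.29 in early and between -0.41 and -0.17 in late cells. That of Amn in early cells lay between -0.43 and -0.28. The ratios of Cubn and Dab2 kept their sign in both segments but came as near to 0 as -0.07 and -0.04 in early cells and -0.02 for both in late cells.

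**Figure D2:**
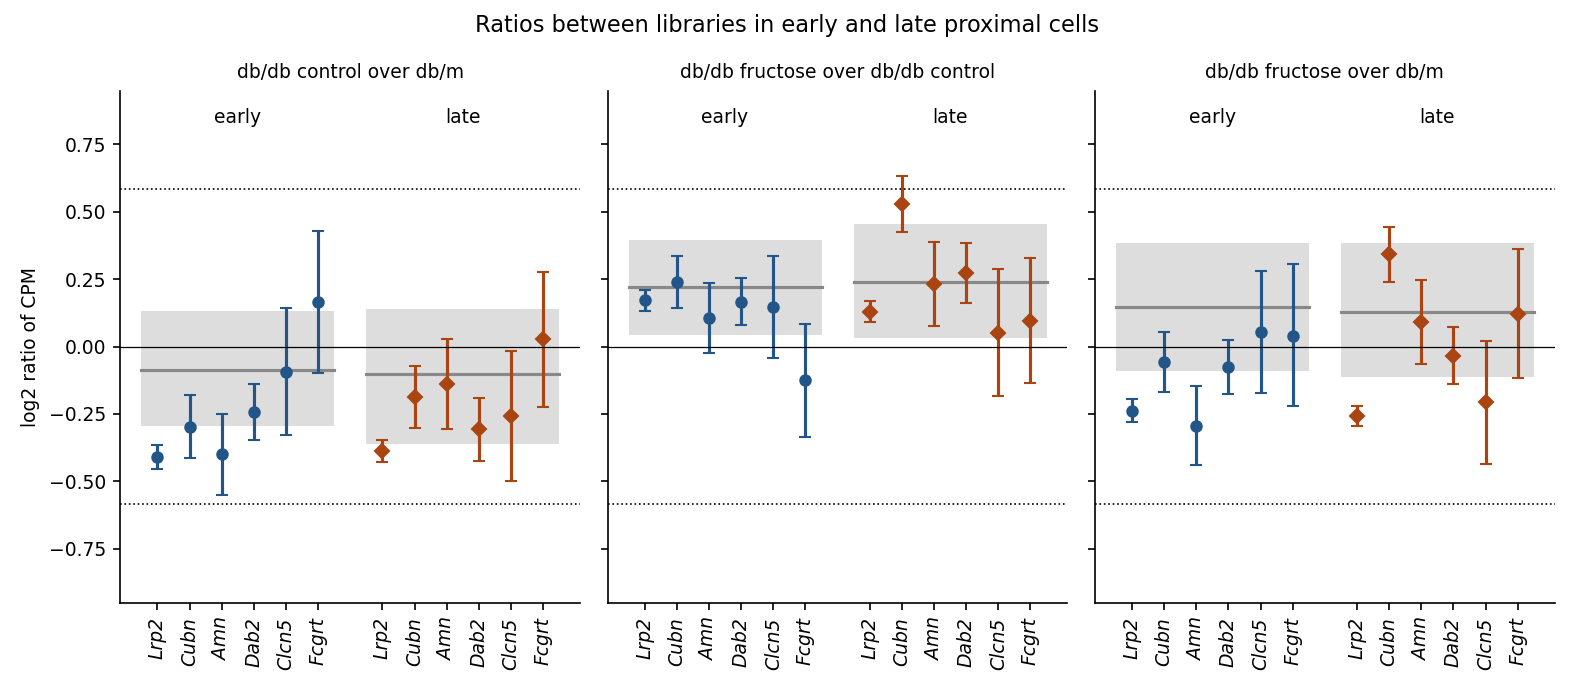
Log2 ratio of CPM for each gene in early (circles) and late (diamonds) proximal tubule-like cells in the 3 comparisons of libraries, with 95% conditional binomial intervals. Grey bands span the interquartile range of all measured genes, the grey line is their median and dotted lines mark 1.5-fold; Cubn in late cells lies above the band in db/db fructose over db/db control (0.53), and Lrp2 in early cells below it in db/db control over db/m (-0.41).

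Fructose feeding of db/db mice addresses what the diet adds to the diabetic kidney. In this comparison most genes had ratios above 0: the median log2 ratio of db/db fructose over db/db control was 0.22 in early and 0.24 in late cells, and scaling by median-of-ratios size factors takes about that much from every gene. The genes are therefore read against that median. Cubn in late cells lay above it: its log2 ratio was 0.53 [0.42 to 0.63], a level 44.2% higher in db/db fructose, which lay 0.29 above the median, and 81.0% of measured genes had a lower ratio. In early cells the Cubn ratio was 0.24 [0.14 to 0.34], only 0.02 above the median. Both late fructose subclusters held the high level, at 424 and 387 CPM, against 286 and 307 CPM in those of db/db control. It was not confined to late cells. An unplaced fructose subcluster of 850 cells was at 413 CPM and one of 58 cells at 174 CPM, against 250 CPM in unplaced db/db control cells. In all proximal cells the ratio was 0.40 [0.33 to 0.47], 0.15 above the median.

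Lrp2 gave 0.17 [0.13 to 0.21] in early and 0.13 [0.09 to 0.17] in late cells, which is 0.05 and 0.11 below the median of all genes. Amn gave 0.11 and 0.23, Dab2 0.17 and 0.27, and Clcn5 0.15 and 0.05 in early and late cells. Against the median, Amn lay 0.12 and 0.01 below, Clcn5 0.07 and 0.19 below, and Dab2 0.05 below in early and 0.03 above in late cells. With size factors the ratios of Lrp2 (-0.04 and -0.09) and Clcn5 (-0.06 and -0.17) turned negative in early and late cells, as did those of Amn (-0.10) and Dab2 (-0.04) in early cells. Only Cubn kept a positive sign in both segments under every setting run, with ranges of 0.03 to 0.50 in early and 0.31 to 0.96 in late cells. Fcgrt lay lowest of the 6 in early cells, at -0.12 [-0.33 to 0.09], or 0.35 below the median, with 11% of genes lower. In late cells it gave 0.10 [-0.14 to 0.33], 0.14 below the median, with 31.5% of genes lower, and Clcn5 was the lowest.

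Again none of the 6 reached 1.5-fold. The shares of all measured genes that did so were 10.9% higher and 1.58% lower in early cells, and 15.5% higher and 2.13% lower in late cells. Subtracting an estimate of free RNA from each class took late Cubn past the threshold, to 0.96 on the log2 scale. The shares above do not apply to that setting, whose share of all genes is not given here. The value therefore shows dependence on the setting only. Against db/m, the db/db fructose library gave -0.24 [-0.28 to -0.20] for Lrp2 in early and -0.26 [-0.29 to -0.22] in late cells, which turned to 0.17 and 0.18 with free RNA subtracted. For late Cubn it gave 0.34 [0.24 to 0.44], positive under all 13 settings. None of the 6 reached 1.5-fold there either, beside 12.8% higher and 3.73% lower among all genes in early cells, and 14.1% and 4.99% in late cells. The 3 comparisons share libraries, so they are not independent of each other.

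Along the tubule the genes differed from one another. Dab2 was higher in early than in late cells of every library, with log2 ratios of 0.42 [0.30 to 0.53], 0.48 [0.38 to 0.59] and 0.38 [0.28 to 0.47]. Amn was higher in early cells as well, most in db/m (0.57 [0.40 to 0.73]) and less in db/db control (0.31 [0.15 to 0.46]) and db/db fructose (0.18 [0.05 to 0.31]). Clcn5 was higher in early cells of both db/db libraries (0.32 [0.09 to 0.54] and 0.41 [0.21 to 0.62]), and in db/m the interval included 0 (0.15 [-0.10 to 0.40]). Lrp2 ran the other way, at -0.17, -0.19 and -0.15, although in db/m it came to 0.05 with a smaller gap between segment scores and to 0.04 with cells of at most 30% mitochondrial UMIs. For Fcgrt the interval included 0 in every library as reported. Over 10 settings its ratio ranged from -0.45 to 0.05 in db/m, from 0.14 to 0.38 in db/db control and from -0.08 to 0.20 in db/db fructose. The value of -0.45 came with the smaller gap between segment scores.

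The gradient of Cubn differed in direction between libraries by more than counting error. It was higher in early cells of db/m (0.14 [0.02 to 0.26]), near equal in db/db control (0.03 [-0.08 to 0.14]) and lower in early cells of db/db fructose (-0.26 [-0.35 to -0.17]). Over 10 settings these ratios ranged from 0.07 to 0.27, from 0.02 to 0.14 and from -0.30 to -0.20, so the ranges of db/db fructose and the other 2 libraries did not meet. None of the 6 differed by 1.5-fold between early and late cells in any library. Of all measured genes 17.2% did so in db/m, 9.45% in db/db control and 12.7% in db/db fructose. Whether the gradients differ between the groups was not tested.

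**Figure D3:**
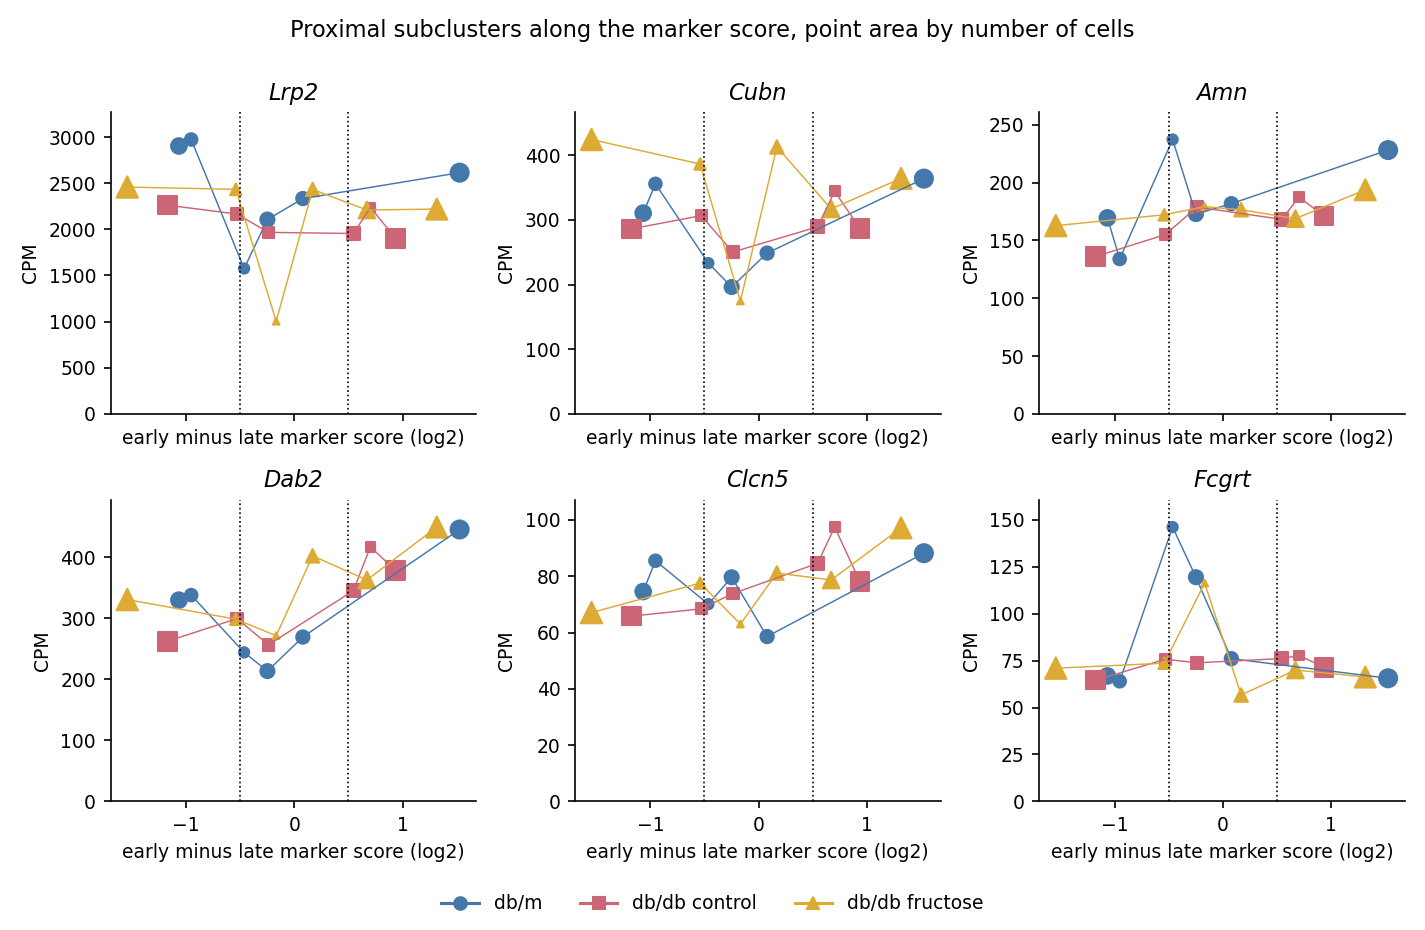
Level of each gene in CPM in the proximal subclusters of each library, plotted against the subcluster's early minus late marker score (log2), with point area by number of cells; lines join subclusters of a library and dotted lines at -0.5 and 0.5 bound the unplaced ones. Dab2 is higher in the early than in the late subclusters of each library, and Fcgrt is highest in 2 unplaced db/m subclusters, at 119 and 146 CPM.

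Proximal cells that neither score placed numbered 2139, 584 and 908, or 37.6%, 10.1% and 11.9% of proximal cells. In db/m they held more Fcgrt, 120 CPM [109 to 131], than early or late cells (65.6 CPM in each), and less Lrp2 (1940 CPM) and Cubn (225 CPM). The Fcgrt level was 119 CPM in a subcluster of 932 cells and 146 CPM in one of 399 cells. A subcluster of 58 fructose cells had a like pattern, with Fcgrt at 116 CPM and Lrp2 at 1003 CPM, and in db/db control unplaced cells Fcgrt was at 73.8 CPM. In all proximal cells together Fcgrt was therefore at 86.0, 70.8 and 68.3 CPM, and db/db control over db/m was -0.28 [-0.43 to -0.14]. Neither early nor late cells as placed here showed that difference. With the smaller gap between segment scores, the subcluster of 399 cells counted as late, and the late ratio came to -0.43. The other 5 had all-cell ratios of -0.25 (Lrp2), -0.04 (Cubn), -0.26 (Amn), -0.02 (Dab2) and -0.06 (Clcn5), each nearer to 0 than in early cells. The intervals of Cubn (-0.12 to 0.03), Dab2 (-0.09 to 0.05) and Clcn5 (-0.20 to 0.09) included 0. The lower Cubn and Dab2 of early and late db/db control cells was thus not seen in all named proximal cells together. None of the 6 passed 1.5-fold in all proximal cells, where 7.76% of genes were higher and 12.2% lower in db/db control over db/m.

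An unnamed cluster of 182, 3524 and 848 cells, with high mitochondrial share (median 23.3%, 37.2% and 19.9%), scored nearest to proximal cells, but weakly. The mean log2 fold of its best markers over the other clusters was 0.28 for proximal cells and 0.17 for thick ascending limb, 0 proximal markers passed, and Umod and Pvalb, markers of distal segments, were among its leading genes. Lrp2 there was at 1542, 1273 and 1476 CPM, which is 62.2%, 61.1% and 63.6% of the proximal level. The summed level of 17 other proximal genes was at 55.2%, 52.3% and 59.4% there. Of the db/db control cells 21.7% were in this cluster, against 1.83% in db/m and 5.28% in db/db fructose. Counting it as proximal together with another unnamed cluster, led by Ptgds, for which 7 proximal markers passed, an alternative added after seeing the data, moved the all-cell ratio of db/db control over db/m to -0.36 for Lrp2, -0.44 for Amn, -0.26 for Dab2 and -0.17 for Cubn. Named proximal cells held 77.0%, 53.4% and 66.8% of the Lrp2 UMIs of the kept cells. None of the 6 passed 1.5-fold with these cells added.

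Detection per cell gave the same order for Lrp2. With each cell thinned to 1000 UMIs, 90.2%, 83.4% and 86.8% of early cells and 93.0%, 87.2% and 88.3% of late cells held an Lrp2 UMI. The thinning left out 201, 79 and 625 early cells and 129, 39 and 257 late cells with fewer UMIs, and 26, 14 and 38 lymphocyte-like cells. Unthinned, the shares were 95.2%, 92.9% and 92.0% in early cells at median depths of 1478, 1652 and 1423 UMIs. Lymphocyte-like cells, which should lack the gene, held an Lrp2 UMI in 52.5%, 50% and 53% of cells after thinning, and in 77.0%, 65.9% and 65.4% before it, at median depths of 1643, 1498 and 1416 UMIs. A UMI of Lrp2 in a single cell was thus common background in these libraries. For Cubn, 29.9%, 24.6% and 34.0% of late cells held a UMI after thinning, highest in db/db fructose, against 14.8%, 8.11% and 6.06% of lymphocyte-like cells. Unthinned, the Cubn shares were 45.0%, 39.7% and 46.6% in late cells and 20.7%, 10.2% and 18.3% in lymphocyte-like cells.

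Outside the proximal tubule, Lrp2, Cubn and Amn kept close to the level of other proximal transcripts, and Dab2, Clcn5 and Fcgrt lay above it in some classes. Free RNA was not measured in empty droplets, and its level was gauged in each class by the summed level of 17 proximal genes, given as a percent of that in proximal cells of the same library. A gene was called above the gauge where the lower bound of its own percent was at least 2 times the gauge. The 6 classes with 100 or more cells in each library (connecting tubule and principal, distal convoluted tubule, endothelium, erythroid, intercalated and thick ascending limb) gave 18 pairs of class and library, in which the gauge lay between 13.2% and 42.2%. Lrp2 was at 1.04 to 1.35 times the gauge, Cubn at 0.793 to 1.12 times and Amn at 0.982 to 1.55 times, and none of the 3 was above it in any of the 18 pairs. Dab2 was above it in 3 of the 18, Clcn5 in 11 and Fcgrt in 14. Single gauge genes scattered around their sum, the highest of the 17 lying at 29.8% to 93.1% over the pairs. Of the pairs above the gauge, the lower bound also exceeded that highest gene in 3 for Dab2, 8 for Clcn5 and 11 for Fcgrt.

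**Figure D4:**
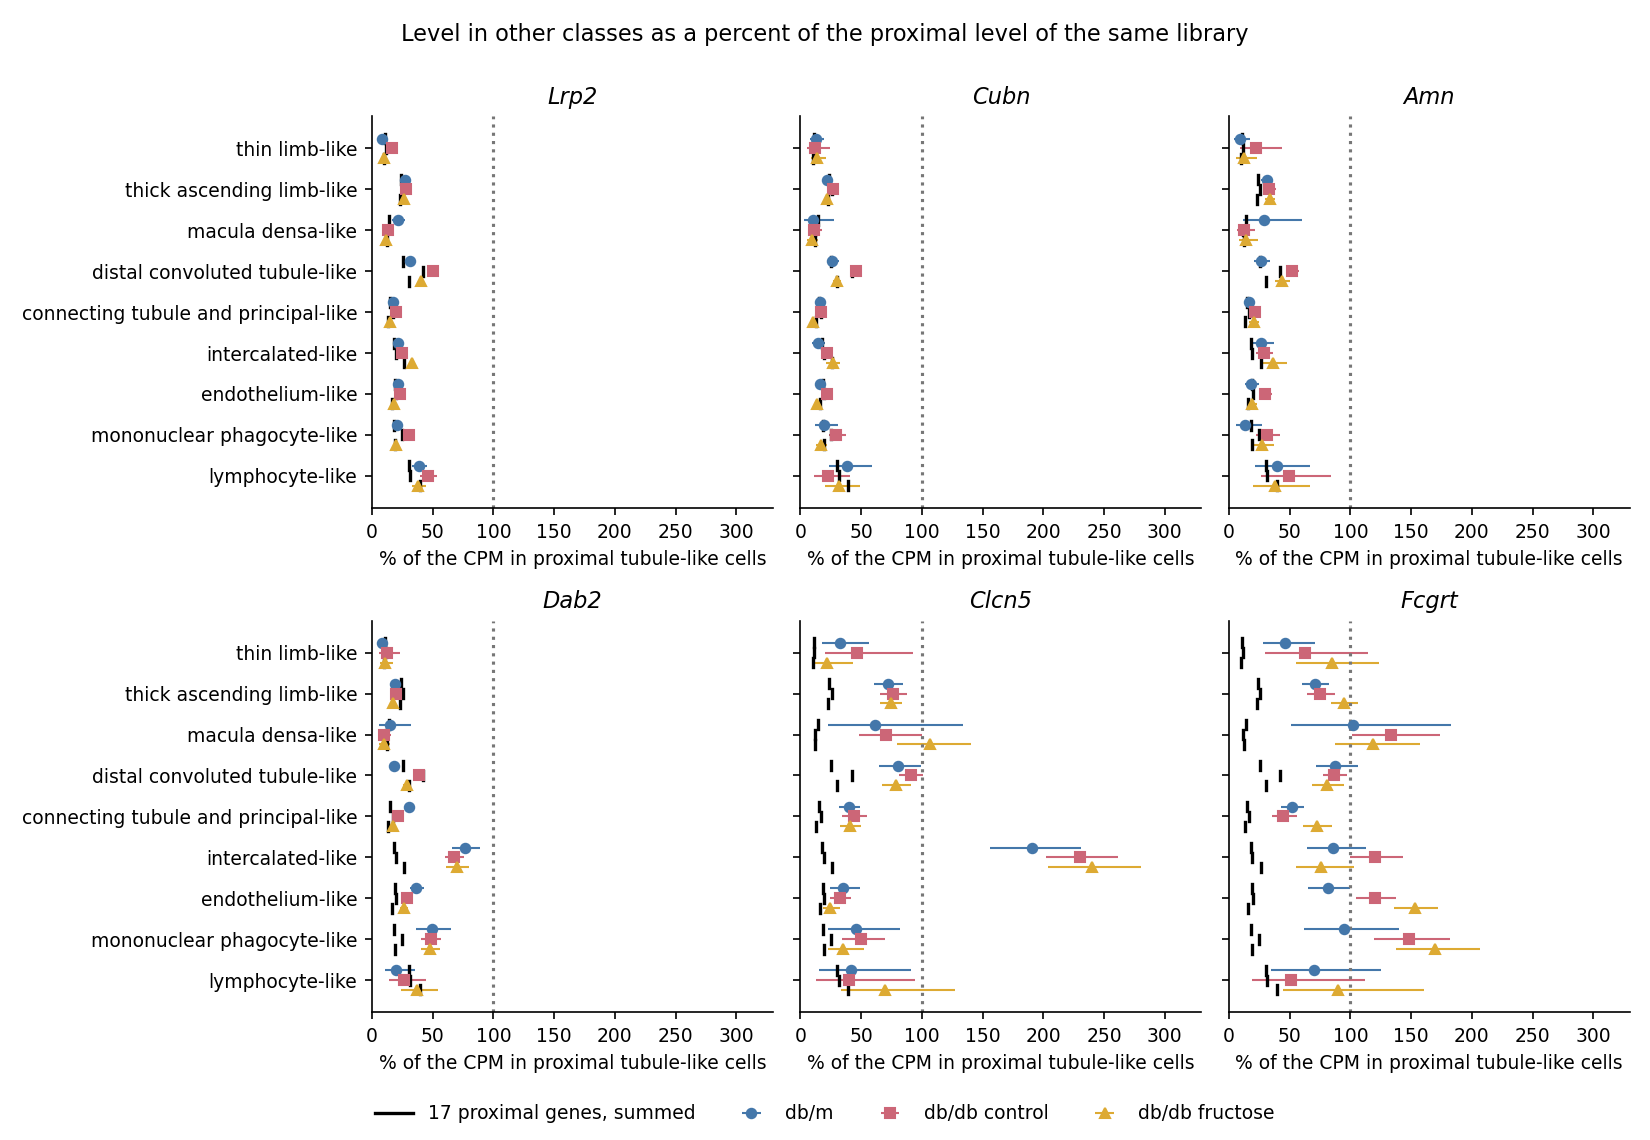
Level of each gene in other classes as a percent of its CPM in proximal tubule-like cells of the same library (dotted line at 100%), with 95% intervals, and the same percent for 17 proximal genes summed (black ticks). Lrp2, Cubn and Amn lie near the ticks in the classes shown that have 100 or more cells in each library, while Clcn5 reaches 191%, 230% and 240% in intercalated-like cells. Smaller classes scatter more, such as Amn in db/m macula densa-like cells at 29.3% beside a tick at 14.2%, from 7 UMIs.

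Clcn5 was highest in intercalated-like cells, the acid and base secreting cells of the collecting duct. There it was at 149, 173 and 193 CPM, with intervals of 122 to 181, 152 to 196 and 164 to 226, which is 191%, 230% and 240% of the proximal level and at least 9.19 times the gauge. Every library showed it, and no interval met that of proximal cells (78.3, 75.2 and 80.6 CPM). After thinning, 14.2%, 15.8% and 17.1% of intercalated-like cells held a Clcn5 UMI, against 8.37%, 7.76% and 9.18% of early proximal cells and 8.20%, 1.35% and 4.55% of lymphocyte-like cells. Unthinned, at median depths of 2493, 1721 and 1386 UMIs, 31.0%, 29.1% and 27.3% of intercalated-like cells held one. Both intercalated clusters had it: the one led by Slc26a4, the chloride-bicarbonate exchanger gene of base-secreting cells, was at 207, 189 and 162 CPM, and the one led by Aqp6 and Slc4a1, a gene of acid-secreting cells, at 133, 163 and 209 CPM. Which of the 2 clusters was higher differed between libraries. Clcn5 was also above the gauge in all 3 libraries in thick ascending limb-like cells (56.2, 57.4 and 59.9 CPM) and in connecting tubule and principal-like cells (31.3, 33.0 and 32.8 CPM). In the latter its lower bounds of 32.1% and 34.6% in db/m and db/db control lay under the highest gauge gene (35.1% and 49.3%), and so did that of 65.7% in thick ascending limb-like cells of db/db control (73.0%).

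Dab2 in intercalated-like cells was at 251, 219 and 265 CPM, or 76.7%, 67.7% and 70.0% of the proximal level and 2.68 to 4.26 times the gauge. In the cluster led by Aqp6 it was at 256, 243 and 303 CPM and above the gauge in all 3 libraries, and in the one led by Slc26a4 it was at 233, 178 and 191 CPM and above it in none. Mononuclear phagocyte-like cells had Dab2 at 160, 156 and 180 CPM from 96, 346 and 302 cells, above the gauge in the db/db fructose library only. In distal convoluted tubule-like cells Dab2 was at 58.7, 124 and 108 CPM, so that db/db control over db/m gave 1.08 on the log2 scale, with an interval of 0.74 to 1.43. Cubn (0.74) and Amn (0.72) also passed 1.5-fold in that comparison, where 15.8% of genes were higher. The gauge itself was at 25.3%, 42.2% and 30.3% in this class, and Dab2 lay at 0.709 to 0.940 times it.

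Fcgrt was spread most widely. Endothelium-like cells had it at 69.9, 85.1 and 105 CPM, which is 81.3%, 120% and 153% of the proximal level (highest gauge gene 75.8%, 45.9% and 29.9%), and mononuclear phagocyte-like cells at 81.7, 105 and 116 CPM. In both classes db/m was lowest and db/db fructose highest, with overlapping intervals between neighbours in that order. In endothelium-like cells db/db fructose over db/m was 0.58 [0.24 to 0.94], just under 1.5-fold, where 12.2% of all genes were at least 1.5-fold higher. The difference was larger in one of the 2 endothelial clusters. Fcgrt was at 62.6, 88.3 and 113 CPM in that led by Ehd3, a glomerular marker, and at 82.7, 81.3 and 92.6 CPM in that led by Mgp. Intercalated-like cells had Fcgrt at 74.0, 84.9 and 52.1 CPM, and db/db fructose over db/db control was -0.70 [-1.25 to -0.19], past 1.5-fold, where 5.97% of genes were lower. Connecting tubule and principal-like cells had 44.5, 31.7 and 49.4 CPM, and the same comparison gave 0.64 [0.22 to 1.06], where 19.3% of genes were higher. These 2 values rest on 42 to 143 UMIs per library.

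Likeness of pattern was measured as the correlation over 7 classes in 3 libraries (21 points, log2(CPM + 5)). Pearson's r was 0.976 between Lrp2 and Amn, 0.966 between Lrp2 and Cubn and 0.966 between Cubn and Amn. With Lrp2, Dab2 had r of 0.631, Clcn5 0.316 and Fcgrt 0.0844. Of 6105 genes, those nearest to Lrp2 were Amn, Slc3a1 (0.973) and Pdzk1 (0.970), and those nearest to Cubn were Gk (0.981), Slc34a1 (0.980) and Slc3a1 (0.979). Nearest to Amn were Lrp2, Folr1 (0.968) and Cubn. Dab2 was nearest to Tanc2 (0.889), Agap1 (0.864) and Rab11fip3 (0.856), Clcn5 to Ppfibp2 (0.949), Dmxl1 (0.936) and Eps8 (0.932), and Fcgrt to E2f4 (0.840), Zfp800 (0.838) and Dctn5 (0.835). The points share libraries and free RNA, so these are descriptions, and no p-value is given.

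Other genes of receptor-mediated uptake, a list of 79 with 70 measured in proximal cells, were counted in both directions in the comparison of genotypes. In db/db control over db/m 6 were at least 1.5-fold higher and 6 lower, or 8.57% each way, beside 7.76% higher and 12.2% lower among all genes. The median log2 ratio was 0.00 beside 0.01 for all genes, so the list as a whole was near the background. The groups are small and were not tested. Of 11 adaptors and partners 3 were lower: Slc9a3r1, a scaffold of the brush border (131, 64.0 and 91.0 CPM, log2 -1.03), Pdzk1, another (424, 253 and 339 CPM, -0.75), and Lrpap1, the chaperone that escorts megalin (222, 133 and 183 CPM, -0.74). Of 14 clathrin coat genes 1 was lower, the light chain gene Clta (87.4, 57.5 and 70.6 CPM, -0.60), and Ap2s1 (-0.55) and Ap2m1 (-0.47) of the AP2 adaptor fell short of the threshold. None of 15 endosome and recycling genes passed it, the farthest being Rab11fip2 (0.57), Snx1 (-0.51) and Appl1 (0.49). Of 15 acidification and lysosome genes only Atp6v0a4, a proton pump subunit, did (158, 331 and 409 CPM, 1.06). The other pump genes Atp6v1a (-0.07), Atp6v0a1 (0.17) and Atp6ap2 (0.14) did not, with Ctns at 0.57 and Ctsl at -0.43.

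**Figure D5:**
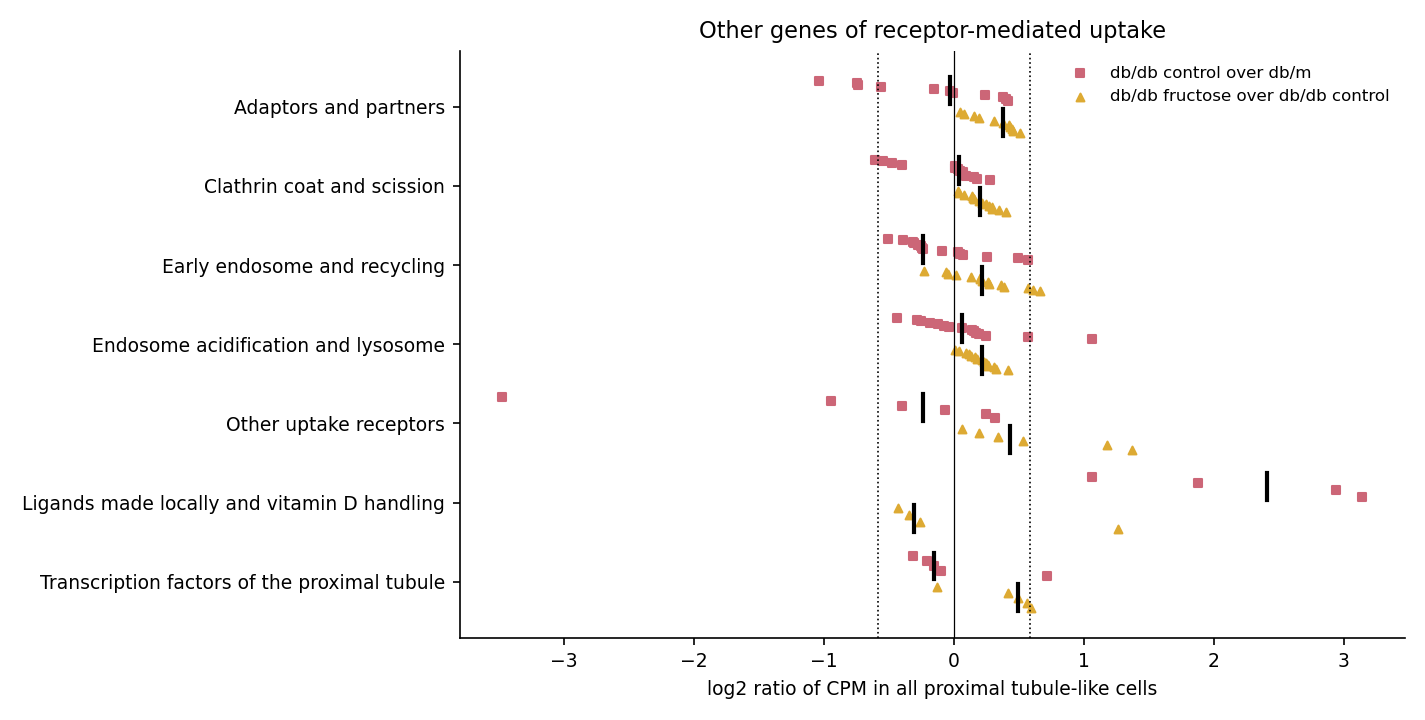
Log2 ratio of CPM in all proximal tubule-like cells for measured genes of receptor-mediated uptake, by group of the list, for db/db control over db/m (squares) and db/db fructose over db/db control (triangles); each symbol is 1 gene, black bars are medians and dotted lines mark 1.5-fold. The 4 genes of the vitamin D and ligand group all lie past 1.5-fold in db/db control over db/m, with a median of 2.41. Gc among them passed the filter of 10 CPM through db/db control only.

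Among other uptake receptors 2 of 6 were lower, among them the fatty acid receptor gene Cd36 (112, 10.1 and 22.9 CPM, -3.47), and M6pr was at -0.40. All 4 measured genes of vitamin D handling and local ligands were higher in db/db control. Of these, Gc reached 10 CPM in db/db control but not in db/m, so the filter fixed its direction in this comparison. Alb, Rbp4 and Ttr of the same group stayed below 10 CPM. Megalin delivers the carrier of vitamin D, which Gc encodes, to cells whose CYP27B1 enzyme activates the vitamin and whose CYP24A1 enzyme destroys it. Cyp24a1 was at 60.4, 533 and 444 CPM (3.14), Gc at 1.90, 14.6 and 10.8 CPM (2.94), Cyp27b1 at 14.2, 52.2 and 125 CPM (1.88) and the receptor gene Vdr at 145, 304 and 239 CPM (1.07). Of 5 transcription factors only Ppara was higher (119, 196 and 297 CPM, 0.72), while Hnf4a (283, 227 and 321 CPM, -0.31) was not past the threshold.

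In db/db fructose over db/db control 6 of the 70 were higher and 0 lower, with a median of 0.24 beside 0.25 for all genes, of which 11.5% were higher and 1.56% lower. With size factors 3 were higher and 2 lower, and the share of all genes under that setting is not given here. Among the 6 were Cyp27b1 (1.26), Cd36 (1.18), Inpp5b (0.66) and Ocrl (0.61), the last 2 being lipid phosphatase genes of endocytosis, and Ppara (0.60). Short of the threshold were Snx1 (0.57), Scarb2 (0.53), Slc9a3r1 (0.51) and Hnf4a (0.50). Slc9a3, the sodium-proton exchanger gene of the brush border (132, 156 and 213 CPM), was at 0.45, Clcn3, a relative of Clcn5 (180, 176 and 236 CPM), at 0.42, and Dnm2, whose product pinches off coated vesicles (96.3, 97.0 and 128 CPM), at 0.41. Vdr (-0.35) and Gc (-0.43) lay below 0. In db/db fructose over db/m 11 of 70 were higher and 1 lower, beside 21.9% and 6.87% of all genes.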

How the data were processed

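The deposited files hold raw UMI counts per gene and cell barcode, which the authors made with Cell Ranger 6.0.0 on mm10, per the submitters' processing notes. They held 13524, 26513 and 20383 barcodes and 31660184, 52704335 and 42028885 UMIs (db/m, db/db control, db/db fructose). Barcodes were kept from 200 genes upwards and up to 50% mitochondrial UMIs, and those with the highest Scrublet scores, 0.8% per 1000 barcodes, were removed as doublets. Scanpy 1.11.5 clustered the cells of all libraries together without batch correction (2000 variable genes, 30 components, 15 neighbours, Leiden resolution 1). The 6 genes, the list of uptake genes, and mitochondrial and ribosomal genes were left out of that clustering. Classes were named from at least 3 markers with a mean log2 fold of 0.8 or more over the best 10, and subclusters were placed as early or late by a gap of 0.5 between segment scores. Both thresholds were set after clusters were seen.

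Counts were summed by class and library and divided by the summed UMIs. Levels carry exact Poisson intervals, ratios exact conditional binomial intervals and shares Clopper-Pearson intervals, all at 95%, from scipy 1.17.1. A change was counted from 1.5-fold among genes with 10 CPM or more, and genes of the list of uptake genes were named where they passed it or led their group. The counting was tested on simulated data with 200 changed genes. The genes and lists were chosen with earlier results of these data known. A few genes of the lists that were measured are not reported here by name.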

Additional observations from a re-analysis of the deposited data

How the results depend on the processing

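Each group has 1 library, so no difference was tested against the spread between mice, and intervals cover counting error only. No paired analysis was possible because each group has 1 library and a shared replicate number pairs nothing. Group, library and cluster make-up cannot be told apart. For the 6 genes, counts past 1.5-fold in proximal cells were 0 in each comparison as reported, and they changed under 2 settings. With free RNA subtracted, 1 gene was higher in db/db fructose over db/db control in late and in all proximal cells (Cubn, log2 0.96 and 0.76). Over db/m, 2 were then higher in late cells (Cubn 0.89, Amn 0.61) and 2 in all proximal cells (Cubn 0.89, Dab2 0.73), with 1 lower (Fcgrt -0.71). With UMIs outside the mitochondrial genome as denominator, 1 gene (Amn) was 1.5-fold apart between early and late cells of db/m. The list of uptake genes depended more on the setting. With size factors its counts were 3 higher and 2 lower in db/db fructose over db/db control, and 5 and 3 over db/m. With the mitochondrial genome left out they were 3 higher and 1 lower in db/db fructose over db/db control, with 2 lower over db/m. With free RNA subtracted they were 13 higher and 10 lower in db/db control over db/m, 16 and 9 in db/db fructose over db/db control, and 27 and 13 over db/m. A minimum of 50 CPM left 3 higher in db/db fructose over db/db control. A 2-fold threshold left 2 lower in db/db control over db/m, and 3 and 5 higher in db/db fructose over db/db control and over db/m. The unnamed cluster led by Ptgds, for which 7 proximal markers passed, counted as proximal, gave 10 lower in db/db control over db/m. A limit of 30% mitochondrial UMIs gave 7 higher in db/db fructose over db/m, and keeping doublets gave 10 higher in db/db fructose over db/db control. The smaller segment gap, the mitochondrial band and the added unnamed clusters were chosen after seeing the data. Shares of all measured genes under these settings are not given here. The counts therefore show dependence on the setting only, and are not results about the 6 genes or the list. No value past 1.5-fold as reported changed direction. None of the 6 genes was past it in proximal cells, so this says nothing about their directions. Ratios under 1.5-fold did change sign. With free RNA subtracted, Lrp2 in db/db fructose over db/m went from -0.24 to 0.17 in early cells. In late cells it went from -0.26 to 0.18. The cause of these shifts was not tested.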

Other observations

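A second unnamed cluster near to proximal cells held 191, 142 and 753 cells, with the libraries in the order used above, and had Ptgds and C3 among its leading genes. Its Amn level was 283, 124 and 227 CPM against 191, 160 and 176 CPM in named proximal cells. Lrp2 was low there, at 912, 1342 and 1450 CPM, and the 17 proximal genes summed were at 77.8%, 69.8% and 89.8% of their proximal level. Fcgrt was at 118, 89.3 and 107 CPM, above the proximal level of each library. In db/m these cells thus held more Amn and Fcgrt and less Lrp2 than named proximal cells, as did the 2 unplaced db/m subclusters with the most Fcgrt for the last 2 genes.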
